A study of Mus musculus with 4 samples.

Results

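Alternative activation is the state that macrophages take on under the cytokines IL-4 and IL-13. These cytokines bind receptors that contain the IL-4 receptor alpha chain, the receptor activates the transcription factor STAT6, and STAT6 works with PPAR gamma, KLF4 and other factors on genes for lectin receptors, arginase, chitinase-like and resistin-like secreted proteins, chemokines and a transglutaminase. In mice these genes are widely used to mark macrophages in helminth infection, allergy and wound repair. The 10 genes described here were chosen by symbol: Il4ra, the receptor chain; Pparg and Klf4, transcription factors; Mrc1 and Mgl2, surface lectins; Arg1 and Tgm2, enzymes; and Chil3, Retnla and Ccl24, secreted products. They are 10 of the 48795 genes in the deposited count table, each matched to 1 row by its Ensembl identifier.

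The cells were bone marrow-derived macrophages of C57BL/6 mice, which are primary macrophages grown from marrow progenitors. Both groups had 5 days in DMEM with 10% fetal bovine serum and 50 ng/ml of the growth factor M-CSF, and were sequenced 48 h after transfection with 50 nM siRNA. The 2 IRF2 siRNA libraries came from cells given siRNAs against IRF2, a transcription factor that binds interferon-responsive elements, and the 2 control siRNA libraries from cells given a control siRNA. The labels name no IL-4 or IL-13 treatment, no untransfected group and no siRNA sequences. Nothing there tells whether replicates were grown separately, so the p-values below rest on a spread between libraries that may be technical. In a fit that leaves out a library, that spread comes only from the group that keeps both.

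Reads counted in genes numbered 26378584 and 26895100 in the IRF2 siRNA libraries, against 29862296 and 32273565 in the control libraries. Irf2 itself had 55.9 and 56.1 CPM (reads scaled to library size) with IRF2 siRNA, against 163.8 and 151.5 CPM with control siRNA, so the knockdown was partial. Its log2 fold change was -1.49 (SE 0.11; edgeR adjusted p = 0.00477). All 9 macrophage markers examined, among them Csf1r and Adgre1, had reads, with summed levels of 29415 and 28301 CPM with IRF2 siRNA and 29955 and 28011 CPM with control siRNA. The largest part was Lyz2, at 13613.7 and 12620.7 CPM with IRF2 siRNA, against 14420.5 and 11835.9 CPM with control siRNA. None of the 9 had an adjusted p under 0.05. In both IRF2 siRNA libraries Cd14 was lower, with a log2 fold change of -0.51 (edgeR adjusted p = 0.131). Csf1r was higher in both, with 0.11 (edgeR adjusted p = 0.904). Of the 13495 genes tested, 1.79% passed an adjusted p under 0.05, 0.511% as rises and 1.27% as falls. The spread was wider between the control libraries, and leaving out control replicate 1 or 2 raised the share of genes called to 10.2% and 12.8%. Leaving out IRF2 siRNA replicate 1 or 2 gave 1.68% and 1.67%.

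With IRF2 siRNA, Tgm2 fell to 0.448 times its control level, while the other 8 genes tested did not pass in either direction. The set divided into 3 layers of abundance that were the same with either siRNA: Mrc1, Il4ra, Tgm2 and Pparg were abundant, Klf4 was intermediate, and Mgl2, Chil3, Ccl24 and Arg1 were low, with at most 131 reads in a library and, for Arg1, as few as 3. Retnla had 0 reads in all 4 libraries.

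DNA upstream of the genes at the ends of this range, the most abundant and the one with no reads, is shown from RefSeq on GRCm38.p6, plus strand, from 250 bases before the RefSeq start up to the base before the GENCODE gene begins. The Mrc1 stretch is chr2:14229164-14229391 and the Retnla stretch is chr16:48842359-48842550.
Mrc1: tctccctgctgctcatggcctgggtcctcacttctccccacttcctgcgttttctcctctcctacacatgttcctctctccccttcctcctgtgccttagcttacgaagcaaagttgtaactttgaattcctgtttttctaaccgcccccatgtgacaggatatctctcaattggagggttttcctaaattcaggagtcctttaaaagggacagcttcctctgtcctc
Retnla: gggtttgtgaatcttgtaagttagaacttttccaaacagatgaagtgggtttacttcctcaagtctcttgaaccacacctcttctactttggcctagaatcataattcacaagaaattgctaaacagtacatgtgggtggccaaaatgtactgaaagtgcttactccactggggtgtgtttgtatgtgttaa

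RefSeq windows were at hand for 7 of the 10 genes, Mrc1, Retnla, Chil3, Mgl2, Il4ra, Klf4 and Pparg, and Pparg has several starts, which made 9 windows. Over the 250 bases before the start, Retnla had 1 CpG and a GC content of 42.8%, and Mrc1 had 3 CpGs and 49.6%, against medians of 6 CpGs and 52.4% over all 32851 windows. Klf4 had 32 CpGs and Il4ra had 17, while the 3 Pparg starts differed widely, with 38, 12 and 2 CpGs and a GC content of 82.4%, 63.6% and 40.8%. Chil3 and Mgl2 had 3 and 5 CpGs. Unlike the stretches shown, these windows were not cut at the GENCODE start. Those of Mrc1, Retnla, Mgl2, Il4ra and Pparg reach into or lie within the GENCODE gene, and those of Chil3 and Klf4 do not. The values describe the windows and not how the genes are controlled. Arg1, Tgm2 and Ccl24 had no window.

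Tgm2 encodes transglutaminase 2, a calcium-dependent enzyme that cross-links proteins and also binds GTP, and which is a marker of alternatively activated macrophages in both mouse and human. It lies on chromosome 2 at 158116402 to 158146436 of GRCm38 on the minus strand, with 4608 exonic bases. It had 2513 and 2359 reads with IRF2 siRNA, against 5775 and 6710 reads with control siRNA. After scaling this was 94.8 and 86.5 CPM with IRF2 siRNA, against 198.8 and 206.1 CPM with control siRNA. Both IRF2 siRNA libraries lay far below both controls, and the gap between groups was many times the spread within either one. The means were 90.7 ± 5.88 CPM with IRF2 siRNA and 202.4 ± 5.16 CPM with control siRNA (SD, n = 2 each). Between groups the log2 fold change was -1.16 (SE 0.11), with a 95% interval of -1.43 to -0.89 (edgeR adjusted p = 0.0079).

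Among the 172 genes that fell, Tgm2 ranked 17 by p and 102 by the size of the fall. Its fall passed in the fits that left out each library in turn, with log2 fold changes of -1.22 to -1.09. Exons of 2 genes on the opposite strand cover part of Tgm2: Rprd1b, a regulator of RNA polymerase II, shares 8.03% of its exonic bases, and Gm20412, a processed transcript with 0 reads in every library, shares 13.7%. The strand setting of the counting is not given in the sources used here, so reads there could not be told apart. Rprd1b had 33.5 and 32.4 CPM with IRF2 siRNA, against 28.0 and 30.1 CPM with control siRNA, and its log2 fold change was 0.18 (SE 0.12; edgeR adjusted p = 0.737). In RNA from whole cultures, fewer cells that express a gene and less of its RNA per cell cannot be told apart, which holds for every gene below as well.

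**Figure D1:**
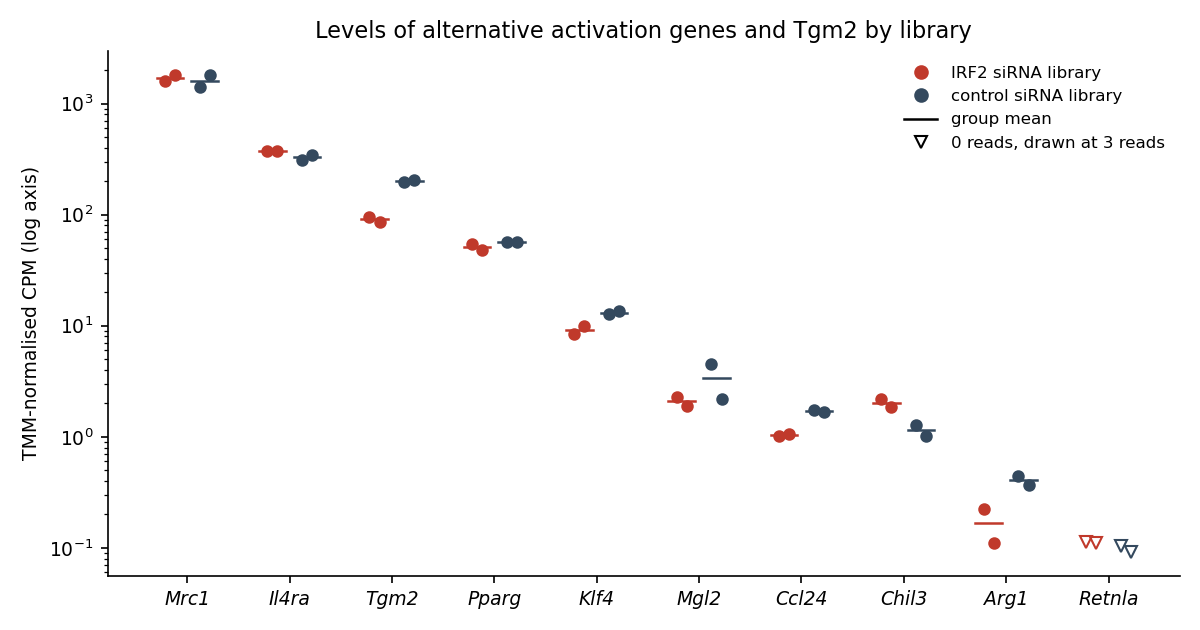
TMM-normalised CPM of each of the 10 genes (log axis) in the IRF2 siRNA libraries (red, left) and the control siRNA libraries (dark, right), with the group means as lines. Tgm2 sits at 94.8 and 86.5 CPM with IRF2 siRNA, below 198.8 and 206.1 CPM with control siRNA, and Retnla, with 0 reads, is drawn at the level that 3 reads would give.

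Il4ra encodes the alpha chain shared by the receptors for IL-4 and IL-13. It had 374.6 and 373.6 CPM with IRF2 siRNA, against 311.1 and 344.5 CPM with control siRNA. Both IRF2 siRNA libraries were above both controls, and the controls were the more widely spread pair. Its log2 fold change of 0.19 (SE 0.11) did not pass (edgeR adjusted p = 0.686), and its 95% interval ran from -0.081 to 0.46. Gm44876, an antisense gene over 9.51% of its exonic bases, had at most 2 reads in a library.

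Of the transcription factors, Pparg encodes the lipid-sensing nuclear receptor PPAR gamma, and Klf4 encodes a Krüppel-like factor that cooperates with STAT6 in mouse macrophages. Pparg had 54.0 and 48.4 CPM with IRF2 siRNA, against 57.2 and 57.1 CPM with control siRNA. The IRF2 siRNA libraries were the lower pair, and the log2 fold change was -0.16 (SE 0.12), with a 95% interval of -0.44 to 0.12 (edgeR adjusted p = 0.794). Klf4 had 8.41 and 9.94 CPM with IRF2 siRNA, against 12.7 and 13.5 CPM with control siRNA. Again both IRF2 siRNA libraries were below both controls. Its log2 fold change of -0.51 (SE 0.15) did not pass over all genes (edgeR adjusted p = 0.223), although its 95% interval, -0.88 to -0.15, taken for that gene alone, lay below 0. Klf4 passed when control replicate 1 was left out, with a log2 fold change of -0.55 (edgeR adjusted p = 0.0133), and did not pass without control replicate 2, with -0.47 (edgeR adjusted p = 0.0515).

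Mrc1 encodes the mannose receptor CD206, an endocytic lectin, and was the most abundant gene of the set. It had 1589 and 1824 CPM with IRF2 siRNA, against 1408 and 1806 CPM with control siRNA. The groups overlapped, replicate 1 being lower than replicate 2 in both. The log2 fold change was 0.087 (SE 0.16), with a 95% interval of -0.29 to 0.47 (edgeR adjusted p = 0.956). Its sign turned without control replicate 1, at -0.079, and without IRF2 siRNA replicate 2, at -0.012.

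Mgl2 encodes the galactose-type lectin CD301b. It had 60 and 52 reads with IRF2 siRNA, against 131 and 72 reads with control siRNA, or 2.26 and 1.91 CPM against 4.51 and 2.21 CPM. Control replicate 1 alone was high and control replicate 2 fell within the range of the IRF2 siRNA libraries. Between groups the log2 fold change was -0.68 (SE 0.36), with a 95% interval of -1.54 to 0.18 (edgeR adjusted p = 0.612). It was -0.083 without control replicate 1 (edgeR adjusted p = 0.915) and passed at -1.11 without control replicate 2 (edgeR adjusted p = 0.000366), so that 1 control library decided both its size and its call. The related lectin gene Clec10a, named after its values were seen, is 94.3% identical over 810 aligned bases of the longest coding transcripts, with 1 identical run of 183 bases. Reads within such a run would be left uncounted as multiply aligned, so the counts of both genes are uncertain. Clec10a had 95.8 and 83.7 CPM with IRF2 siRNA, against 140.9 and 101.4 CPM with control siRNA, with a log2 fold change of -0.43 (edgeR adjusted p = 0.43).

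Arg1 encodes arginase 1, which turns arginine into ornithine and urea and is among the genes most strongly induced by IL-4 in mouse macrophages. It had 6 and 3 reads with IRF2 siRNA, against 13 and 12 reads with control siRNA. These are 0.226 and 0.11 CPM with IRF2 siRNA and 0.447 and 0.369 CPM with control siRNA. The groups did not overlap, but Arg1 entered the test only because both control libraries reached the filter level of 0.352 CPM, which neither IRF2 siRNA library did. Its log2 fold change of -1.26 (SE 0.60), with a 95% interval of -2.68 to 0.16, did not pass (edgeR adjusted p = 0.536).

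Chil3 encodes the chitinase-like protein Ym1, a secreted lectin without chitinase activity. It had 58 and 51 reads with IRF2 siRNA, against 37 and 33 reads with control siRNA, or 2.19 and 1.87 CPM against 1.27 and 1.01 CPM. Both IRF2 siRNA libraries were above both controls. The log2 fold change was 0.83 (SE 0.27), with a 95% interval of 0.20 to 1.46, and it did not pass over all genes (edgeR adjusted p = 0.267). It passed without control replicate 1, at 1.0 (edgeR adjusted p = 0.0462), and not without control replicate 2, at 0.67 (edgeR adjusted p = 0.208). Its near copy Chil4, 94.4% identical over 1538 aligned bases with an identical run of 136 bases, had 0 reads in every library, and the counts of both are uncertain for the reason given for Mgl2.

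Retnla encodes RELM alpha, also called FIZZ1, a resistin-like protein of allergic and helminth-induced inflammation. Its 0 reads allow a level of up to 0.113 and 0.11 CPM in the IRF2 siRNA libraries and up to 0.103 and 0.0921 CPM in the control libraries, counting 3 reads as the limit and covering counting error only. It was therefore not detectable at this depth and was not tested. The related genes Retnlb and Retnlg also had 0 reads in every library.

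Ccl24 encodes eotaxin 2, a chemokine for eosinophils that acts through the receptor CCR3. It had 27 and 29 reads with IRF2 siRNA, against 51 and 54 reads with control siRNA, or 1.02 and 1.06 CPM against 1.76 and 1.66 CPM. The libraries of each group lay close together and the groups did not overlap. Its log2 fold change of -0.71 (SE 0.26), with a 95% interval of -1.33 to -0.091, did not pass over all genes (edgeR adjusted p = 0.358). The receptor gene Ccr3, named after its values were seen, had 10.4 and 11.6 CPM with IRF2 siRNA, against 20.1 and 22.9 CPM with control siRNA, and fell with a log2 fold change of -0.97 (edgeR adjusted p = 0.0253). Ccr3 is also the 1 gene called among 6 eosinophil markers, whose summed level was 11.8 and 12.7 CPM with IRF2 siRNA and 21.9 and 24.3 CPM with control siRNA. Siglecf, the other eosinophil marker tested, had 0.906 and 0.77 CPM with IRF2 siRNA, against 1.45 and 1.35 CPM with control siRNA, with a log2 fold change of -0.74 (edgeR adjusted p = 0.408). Of the defining eosinophil granule genes, Ear6 had 0 reads in every library, Epx and Prg3 had at most 2, and Prg2 had 10 and 8 with IRF2 siRNA against 8 and 0 with control siRNA.

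**Figure D2:**
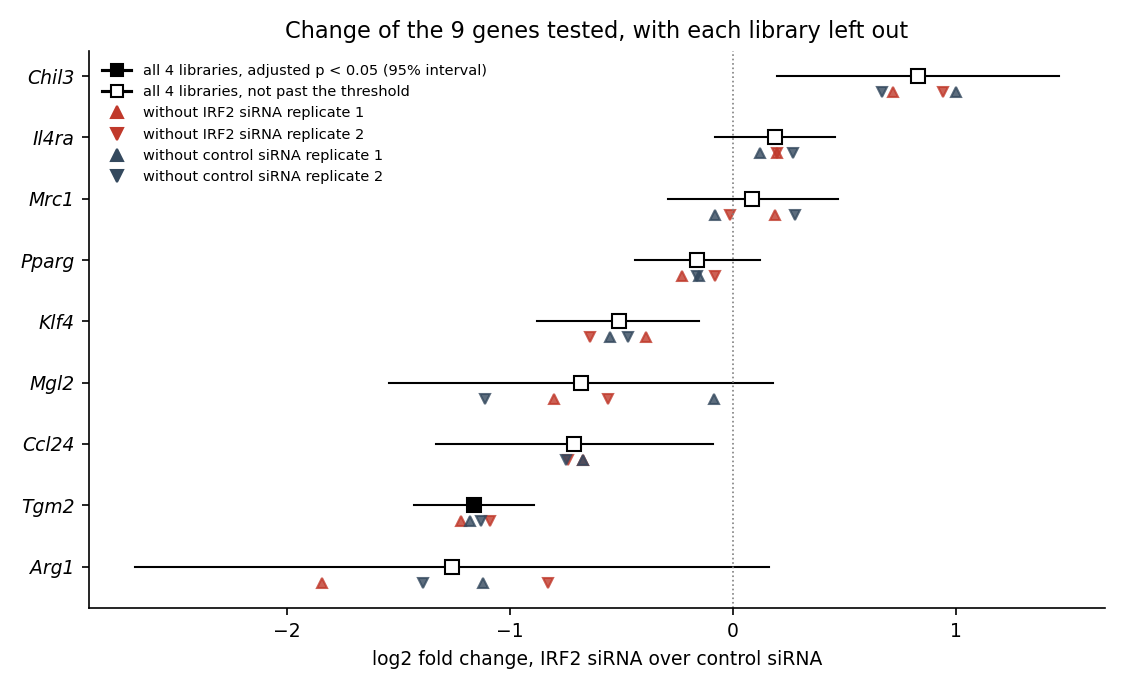
Log2 fold change (IRF2 siRNA over control siRNA) of the 9 genes tested, as squares with 95% intervals, filled where the adjusted p was under 0.05, and triangles below them for the fits that leave out 1 library. Tgm2 stays between -1.22 and -1.09, while Mgl2 moves between -1.11 and -0.083 depending on which control library is left out.

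Over the set, 9 of the 10 genes were tested, and 1 of these fell and 0 rose, against the 1.27% and 0.511% of all genes given above. By edgeR, 1 gene that was higher and 3 that were lower had an unadjusted p under 0.05, against 3.61% and 7.33% of all genes tested and 10.9% in either direction. DESeq2, limma-voom and the edgeR likelihood ratio test each called Tgm2 as a fall and 0 rises. Over all genes these tests called 3.11%, 1.68% and 5.11% in either direction. Leaving out Arg1, whose place below the controls follows from how it passed the filter, groups did not overlap for 6 of 8, 2 higher and 4 lower with IRF2 siRNA, against 38.4% of all genes tested, of which 19.0% were higher and 19.4% lower. The median log2 fold change of the 8 genes that reached the filter in both groups was -0.34, against -0.0015 for all genes tested. Without control replicate 1, 1 of the set rose and 2 fell, and without control replicate 2, 0 rose and 2 fell, which are counts to be read against the far larger shares of all genes called in those fits.

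**Figure D3:**
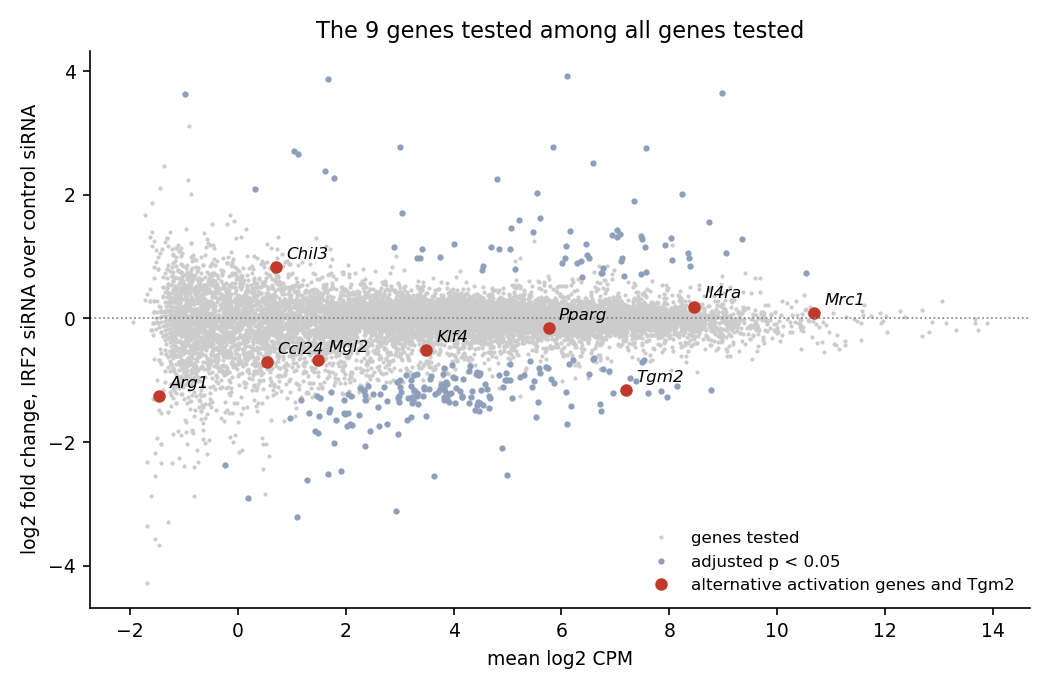
Log2 fold change (IRF2 siRNA over control siRNA) against mean log2 CPM for the 13495 genes tested, with genes past an adjusted p of 0.05 in blue and the 9 genes tested here in red. Tgm2 lies among the genes that fell, at -1.16, while Mrc1 and Il4ra lie near 0 at high abundance and Arg1, Ccl24, Chil3 and Mgl2 lie where all genes scatter widely.

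Levels were set against each other per length, as RPKM, which is CPM divided by the exonic length in kilobases. With IRF2 siRNA the order was Mrc1 at 267.8, Il4ra at 62.3, Tgm2 at 19.7, Pparg at 17.3, Klf4 at 3.01, Chil3 at 1.24, Mgl2 at 0.996, Ccl24 at 0.804 and Arg1 at 0.0755 RPKM. With control siRNA it was Mrc1 at 252.2, Il4ra at 54.6, Tgm2 at 43.9, Pparg at 19.3, Klf4 at 4.30, Mgl2 at 1.60, Ccl24 at 1.32, Chil3 at 0.701 and Arg1 at 0.183 RPKM. Mgl2 and Ccl24 overlapped in the control libraries, at 2.15 and 1.06 against 1.36 and 1.28 RPKM, so their order there does not hold beyond the spread. Tgm2 and Pparg came close with IRF2 siRNA, at 20.6 and 18.8 against 18.3 and 16.4 RPKM, whereas with control siRNA they were 43.1 and 44.7 against 19.4 and 19.3 RPKM. Among all genes tested, Mrc1 stood at percentile 99.1 with IRF2 siRNA and 99.0 with control siRNA, Tgm2 at 82.4 and 92.2, and Arg1 at 1.62 and 5.61.

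Most of the other transglutaminase genes were at or near 0 reads. Of 8 genes listed, 3 were tested, Tgm5 and Tgm6 had 0 reads in every library, and Tgm3, Tgm7 and Epb42 had at most 5. F13a1, the A chain of coagulation factor XIII and a transglutaminase made by macrophages, had 5.92 and 6.60 CPM with IRF2 siRNA, against 13.1 and 10.8 CPM with control siRNA. Both IRF2 siRNA libraries were below both controls, and the log2 fold change of -0.93 (SE 0.17) did not pass (edgeR adjusted p = 0.0538). Without control replicate 1 F13a1 had -0.78, and without control replicate 2 it had -1.06, with no spread between controls in either fit. Tgm1, best known as the transglutaminase of the skin barrier, had a log2 fold change of -0.77 (SE 0.24; edgeR adjusted p = 0.253). The third gene tested, Tgm4, had 15 and 13 reads with IRF2 siRNA, against 4 and 8 reads with control siRNA. It entered the test only because both IRF2 siRNA libraries reached the filter level of 0.352 CPM, which neither control library did. Its place above the controls follows from that. The median over the 3, Tgm4 included, was -0.77. By edgeR's quasi-likelihood test 0 were called. Tgm4 aside, 2 genes that were lower had an unadjusted p under 0.05, against 7.33% of all genes. DESeq2 and the likelihood ratio test each called 1 fall (3.11% and 5.11% of all genes being called by those tests), and limma-voom called 0 (1.68% of all genes). Exons of all 3 overlap other genes. The antisense gene Gm30489 covers 1.1% of the exonic bases of F13a1, and Gm49067 covers 5.76% of those of Tgm1. Neither antisense gene has a row in the deposited counts. Zdhhc3, on the opposite strand, covers 18.2% of the exonic bases of Tgm4 and had 1808 to 2370 reads in a library. Values of all 3 are uncertain over those shares, and the few reads of Tgm4 could not be told apart from those of Zdhhc3.

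Genes of IL-4 and IL-13 receptor signalling did not pass. Of 16 listed, 14 were tested, with a median log2 fold change of 0.12 against -0.0015 for all genes, and 10 were above 0. Il13ra1, the chain that pairs with IL-4 receptor alpha in the type II receptor, had 27.3 and 27.1 CPM with IRF2 siRNA, against 19.1 and 19.2 CPM with control siRNA. Its libraries were nearly equal within groups and separate between them, and the log2 fold change was 0.51 (SE 0.12; edgeR adjusted p = 0.122). The log2 fold change was also 0.51 without control replicate 1 and without control replicate 2. Cish, a cytokine-inducible inhibitor of STAT signalling, had 0.69 (edgeR adjusted p = 0.408). Stat6 itself, named after its values were seen, had 359.3 and 367.8 CPM with IRF2 siRNA, against 322.6 and 349.4 CPM with control siRNA (edgeR adjusted p = 0.877). At an unadjusted p under 0.05 by edgeR, 3 genes were higher and 0 lower, against 3.61% and 7.33% of all genes. DESeq2 and limma-voom called 0, and the likelihood ratio test called 1, against 5.11% of all genes called by it. Of the cytokines, Il4 had 218 and 180 reads with IRF2 siRNA, against 192 and 180 reads with control siRNA, and Il13 had at most 1 read in a library.

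Among other alternative activation genes, Clec7a, which encodes the beta-glucan receptor Dectin-1, rose. It had 439.1 and 422.8 CPM with IRF2 siRNA, against 260.1 and 218.6 CPM with control siRNA, with a log2 fold change of 0.85 (SE 0.13; edgeR adjusted p = 0.0253). The call was lost without IRF2 siRNA replicate 1, at 0.83 (edgeR adjusted p = 0.0948), and without replicate 2, at 0.88 (edgeR adjusted p = 0.0576). It was the 1 gene called of 20 tested among 28 listed, with 0 falls and a median of -0.06. At an unadjusted p under 0.05, 4 were higher and 6 lower, against 3.61% and 7.33% of all genes. DESeq2 called 2 rises and 2 falls, limma-voom 1 rise and 0 falls, and the likelihood ratio test 3 rises and 2 falls. Over all genes these tests called 3.11%, 1.68% and 5.11%. Among the listed genes that were not tested, Alox15, Ccl17 and Cdh1 had no more than 7 reads in a library and Chil4, Retnlb and Retnlg had 0.

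Regulators of alternative activation had log2 fold changes on both sides of 0. Of 18 listed, 17 were tested, 0 passed, and the median was -0.023. Nfil3, a basic leucine zipper factor, had 12.8 and 15.7 CPM with IRF2 siRNA, against 23.0 and 20.7 CPM with control siRNA, with a log2 fold change of -0.61 (edgeR adjusted p = 0.137). Irf4, a factor that acts downstream of IL-4 in mouse macrophages, had 20.5 and 21.3 CPM with IRF2 siRNA, against 15.4 and 14.8 CPM with control siRNA, with 0.47 (edgeR adjusted p = 0.171). In the fits that left out 1 control library, Nfil3 had -0.54 and -0.69 and Irf4 had 0.50 and 0.44. At an unadjusted p under 0.05 by edgeR, 1 was higher and 2 lower, against 3.61% and 7.33% of all genes. DESeq2 and limma-voom called 0, and the likelihood ratio test called 1 fall, against 5.11% of all genes called by it.

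PPAR gamma target genes had 11 of 14 tested, with 0 called and a median of 0.078. Lpl, which encodes lipoprotein lipase, had 1579 and 1460 CPM with IRF2 siRNA, against 2297 and 2136 CPM with control siRNA, with a log2 fold change of -0.54 (SE 0.12; edgeR adjusted p = 0.106). Fabp4, a fatty acid carrier and a classical target of PPAR gamma, had 5.70 and 4.33 CPM with IRF2 siRNA, against 9.74 and 8.29 CPM with control siRNA, with -0.85 (edgeR adjusted p = 0.11). Both were lower in each IRF2 siRNA library than in each control. In the fits that left out 1 control library, Lpl had -0.49 and -0.60 and Fabp4 had -0.72 and -0.96. At an unadjusted p under 0.05 by edgeR, 2 were higher and 3 lower, against 3.61% and 7.33% of all genes. DESeq2 called 1 fall, limma-voom 0 and the likelihood ratio test 2 falls, against 3.11%, 1.68% and 5.11% of all genes called.

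Arginine and polyamine metabolism, the route that arginase feeds, had 16 of 18 genes tested, 0 called and a median of -0.0021. Ass1, which remakes arginine from citrulline, had 4.41 and 4.91 CPM with IRF2 siRNA, against 6.78 and 7.89 CPM with control siRNA. Its log2 fold change was -0.65 (edgeR adjusted p = 0.166), and -0.75 without control replicate 1. Odc1, the ornithine decarboxylase that opens polyamine synthesis, had -0.29 (edgeR adjusted p = 0.563), and -0.45 without control replicate 2. By edgeR, 1 gene had an unadjusted p under 0.05, a level that 10.9% of all genes reached. DESeq2 and limma-voom called 0, and the likelihood ratio test called 1 fall, against 5.11% of all genes called by it. Nos2, the nitric oxide synthase that competes with arginase for arginine, had 5 and 20 reads with IRF2 siRNA, against 5 and 0 reads with control siRNA, and was not tested.

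Of 15 other Krüppel-like factors, 10 were tested, with 0 called and a median of 0.024. Klf13 and Klf10 had log2 fold changes of 0.22 and -0.15 (edgeR adjusted p = 0.742 and 0.809). None had an unadjusted p under 0.05 by edgeR, and DESeq2, limma-voom and the likelihood ratio test called 0. Without control replicate 2, Klf13 had a log2 fold change of 0.43. Classical activation genes, the counterpart induced by interferon gamma and lipopolysaccharide, had 11 of 18 tested, with 0 called and a median of 0.17. Ptgs2, the inducible cyclooxygenase, had 3.02 and 4.62 CPM with IRF2 siRNA, against 1.48 and 1.60 CPM with control siRNA, with a log2 fold change of 1.31 (edgeR adjusted p = 0.0827), and passed without control replicates 1 and 2, at 1.26 and 1.37, and without IRF2 siRNA replicate 1, at 1.59. Cd80, a costimulatory ligand for T cells, had 0.48 (edgeR adjusted p = 0.231) and passed without control replicate 1, at 0.56 (edgeR adjusted p = 0.0126). At an unadjusted p under 0.05 by edgeR, 3 classical activation genes were higher and 2 lower, against 3.61% and 7.33% of all genes. DESeq2 and the likelihood ratio test called 1 rise each, and limma-voom called 0, against 3.11%, 5.11% and 1.68% of all genes called.

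**Figure D4:**
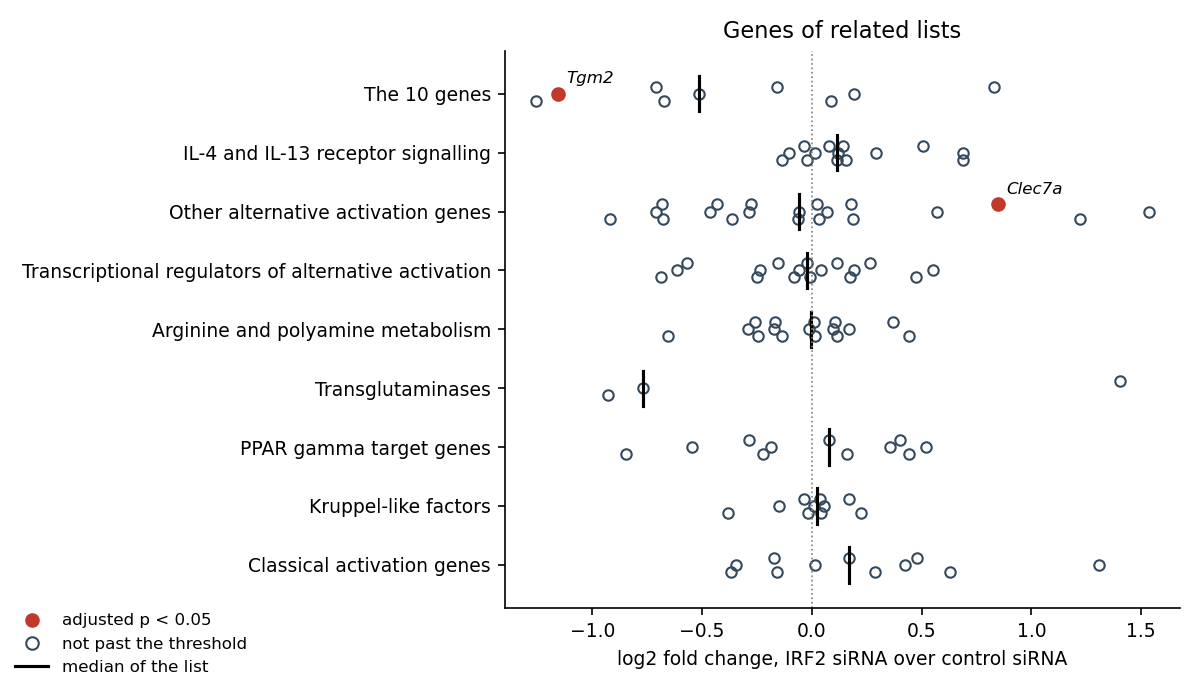
Log2 fold change (IRF2 siRNA over control siRNA) of each gene tested in the set of 10 and in 8 related lists, with filled points past an adjusted p of 0.05 and a line at the median of each list. Tgm2, at -1.16, and Clec7a, at 0.85, are the 2 filled points.

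Fibroblast and stromal markers, 8 genes with reads, summed to 12.2 and 14.3 CPM with IRF2 siRNA and 10.8 and 12.7 CPM with control siRNA. Endothelial markers summed to 34.8 and 39.1 CPM with IRF2 siRNA and 36.2 and 38.7 CPM with control siRNA, mostly from Pecam1. Both sums overlapped between groups. Dendritic cell markers summed to 1.85 and 2.20 CPM with IRF2 siRNA and 2.24 and 2.33 CPM with control siRNA, and those of neutrophils and their precursors to 11.8 and 14.7 CPM with IRF2 siRNA and 10.8 and 11.4 CPM with control siRNA. Of 7 mast cell and basophil markers, 4 had 0 reads in every library and the sums were at most 0.344 CPM, and erythroid markers summed to at most 0.921 CPM. T cell and innate lymphoid markers summed to 79.2 and 86.8 CPM with IRF2 siRNA and 111.1 and 118.6 CPM with control siRNA, nearly all from Il7r, which did not pass (log2 fold change -0.47; edgeR adjusted p = 0.131), while Cd3d, Cd3e and Cd3g had at most 2 reads in a library. B cell markers summed to 285.5 and 274.0 CPM with IRF2 siRNA and 244.4 and 200.2 CPM with control siRNA, nearly all from Ighm, which did not pass (log2 fold change 0.34; edgeR adjusted p = 0.404), while Pax5 had 0 reads in every library. Osteoclast markers summed to 31.7 and 27.5 CPM with IRF2 siRNA and 25.7 and 23.9 CPM with control siRNA, and included Mmp9, which rose with a log2 fold change of 0.98 (edgeR adjusted p = 0.0253). Without Mmp9 the other 6 osteoclast markers summed to 18.4 and 14.2 CPM with IRF2 siRNA and 18.6 and 17.6 CPM with control siRNA, and among them Dcstamp had a log2 fold change of -0.74 (edgeR adjusted p = 0.426). The part of these cell types in the results above was not tested.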

How the data were processed

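The authors deposited 1 table of raw read counts per gene for the 4 libraries. Per the submitters' processing notes, bcl2fastq 2.18.0.12, STAR 2.5.2b, HTSeq 0.6.0 and DESeq2 were used, with the build mm10; for the annotation release and strand setting the sources used here give nothing. The 5 summary rows were left out of library sizes and tests; reads in no gene made up 5.07% to 6.85% of a column, ambiguous reads 4.17% to 4.71% and multiply aligned reads 12.5% to 15.0%. Symbols, exon lengths and overlaps came from GENCODE M21, on the same assembly.

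The analysis ran in R 4.3.3 under edgeR 4.0.16: filterByExpr (minimum count 10, minimum total 15), TMM, estimateDisp, glmQLFit with legacy = FALSE and glmQLFTest on the siRNA group, with Benjamini-Hochberg adjustment over all 13495 genes tested and a threshold of 0.05. Standard errors (SE) come from the size of the change over the root of F, and 95% intervals use the test's own degrees of freedom. CPM is TMM-normalised. The procedure was tested on simulated data. Alternatives used DESeq2 1.42.0 and limma 3.58.1 among others.

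All 10 genes are named, as is Irf2. Each list gives up to 4 called genes with the smallest p, or 2 where none is called. Other genes were named after their values were seen, and only some are marked so in the text. Those without the mark include Rprd1b, Nos2, Il4, Il13, Alox15, Ccl17, Cdh1, Chil4, Retnlb, Retnlg and the transglutaminase genes other than Tgm2, F13a1 and Tgm1. The genes and lists were chosen with earlier results of these data known. Ear11, listed, matched no symbol.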

Additional observations from a re-analysis of the deposited data

How the results depend on the processing

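The fall of Tgm2 kept its direction and passed the threshold of 0.05 in all 14 alternatives, with log2 fold changes of -1.22 to -1.09 and adjusted p-values up to 0.0394, the highest without a filter. Il4ra, Pparg and Ccl24 kept their directions and did not pass in any of the 14. Arg1 did likewise in the 12 that gave it a value; the minimum of 1 CPM removed it, and DESeq2 gave it no adjusted p. Leaving out each library in turn gave -0.079 to 0.28 for Mrc1, 0.67 to 1.0 for Chil3, -1.11 to -0.083 for Mgl2 and -0.64 to -0.39 for Klf4. With the replicate number as a block, Chil3 (0.83), Mgl2 (-0.65) and Klf4 (-0.52) passed; the labels name no pairing, same-numbered deviations correlated at 0.373 across genes with only 2 numbers, and 503 genes rose and 1018 fell under the block, with 12 rises and 15 falls among the 8 lists. Over all genes, 69 rose and 172 fell, against 118 and 302 with DESeq2, 172 and 518 with the likelihood ratio test, 31 and 41 without a filter, and 26 and 24 at a threshold of 0.01. Leaving out a library gave 62 to 710 rises and 171 to 1060 falls. Among the lists, each gene once, 1 rose and 0 fell, against 3 and 4 with DESeq2, 5 and 7 with the likelihood ratio test, 0 rises without a filter or at 0.01, and 2 falls at a CPM minimum of 1; leaving out a library gave 0 to 12 rises and 0 to 17 falls. Under the filter described above, 101 genes of the lists were tested, among 13495 in all. Their 1 rise and 0 falls stand against 0.511% and 1.27% of all genes. The cause of the moves between fits was not tested. At no more than 131 reads a library, the counts of Arg1, Chil3, Mgl2 and Ccl24 limit what could be detected.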
